A study of Mus musculus with 6 samples.

Results

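The Th2 axis was followed here through 4 genes, Il4, Il4ra, Gata3 and Maf, taken by name from the 750 genes of the deposited table. Th2 cells are the branch of CD4 T helper cells that makes type 2 cytokines. In the textbook circuit interleukin 4, encoded by Il4, binds a receptor whose ligand-binding chain is encoded by Il4ra, and the receptor activates the transcription factor STAT6. STAT6 raises Gata3, the regulator that opens the type 2 cytokine locus, and the factor encoded by Maf binds the Il4 promoter together with NFAT. Maf is also used outside Th2 cells, in follicular helper, interleukin 10-producing and Th17 cells and in macrophages, and Il4ra is carried by B cells and myeloid cells as well as T cells.

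The RNA came from CD4 T cells of mouse liver and was counted with the nCounter assay, in which barcoded probes hybridise to RNA and are counted without amplification. The 3 libraries labelled Chow were described as control and the 3 labelled FFC as MASH, which in this field usually stand for a diet rich in fat, fructose and cholesterol and for metabolic steatohepatitis, although the labels spell out neither. The series calls the 3 per group biological replicates. The labels used here give no strain, age, sex, length of diet or sorting gate, and no allele or agent besides the diet.

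Of the 4 genes 1, Maf, rose in FFC and 1, Il4ra, fell, while Il4 and Gata3 did not pass the test (limma on log2 values, adjusted p under 0.05). Of the 748 tested genes 17.4% passed as higher and 0.936% as lower. When each library was centred on its own median, Maf and Il4ra passed likewise, beside 14.4% of genes higher and 4.81% lower. After quantile normalization Il4ra alone of the 4 passed, beside 4.01% of genes higher and 3.07% lower.

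The Il4 promoter is shown because it is where MAF acts in the textbook circuit, and the Il4ra promoter because Il4ra was the member that fell. Both are the 250 bases before the start of transcription in RefSeq's annotation of GRCm38.p6, that of Il4 at chr11:53618666-53618915 on the minus strand and that of Il4ra at chr7:125552021-125552270 on the plus strand. Capitals mark, on either strand, the MAF core TGCTGA, the NFAT core GGAAA and the STAT6 palindrome, which is TTC and GAA with any 4 bases between them.
Il4: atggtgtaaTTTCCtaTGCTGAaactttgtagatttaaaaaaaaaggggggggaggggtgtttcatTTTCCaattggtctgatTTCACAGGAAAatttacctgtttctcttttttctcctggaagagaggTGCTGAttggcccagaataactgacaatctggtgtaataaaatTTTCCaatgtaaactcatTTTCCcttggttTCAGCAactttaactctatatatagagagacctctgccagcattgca
Il4ra: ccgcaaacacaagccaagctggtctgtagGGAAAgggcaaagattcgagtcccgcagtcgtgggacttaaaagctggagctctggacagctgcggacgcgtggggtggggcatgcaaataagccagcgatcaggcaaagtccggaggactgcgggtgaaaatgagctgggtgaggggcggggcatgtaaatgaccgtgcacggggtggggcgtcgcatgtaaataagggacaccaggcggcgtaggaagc
The Il4 window held 3 MAF cores, which began 234, 120 and 47 bases before the start, 5 NFAT cores and 1 STAT6 palindrome. That palindrome, at 167 bases before the start, overlapped the NFAT core at 161. The Il4ra window held 1 NFAT core and none of the other motifs. The GATA core GATAA was in neither window. RefSeq lists a further Il4 start, whose window at chr11:53617339-53617588 held none of the 4 motifs and is not printed. Of 32851 promoter windows of this length 16.1% held the MAF core, 55.6% the NFAT core, 5.85% the STAT6 palindrome and 22.6% the GATA core. These matches describe letters in a window and were not tested for binding.

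Il4, the cytokine itself, did not differ beyond the spread between libraries, and it was lowest in FFC 3. The deposited values are log2 of a whole-number count times 1 factor per library, so that both the value and the count can be given. Il4 stood at log2 7.79, 8.31 and 7.57 in Chow libraries 1 to 3 and at 7.87, 7.70 and 6.26 in FFC libraries 1 to 3. The counts behind these values were 287, 449 and 173 in Chow and 198, 165 and 69 in FFC. The groups overlapped on both scales, with FFC 3 below every other library. Its 69 counts had a 95% Poisson interval of 53.7 to 87.3, which covers counting error only.

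The difference of Il4 was -0.62 ± 0.43 (log2, SE; means 7.89 ± 0.38 in Chow and 7.28 ± 0.88 in FFC, SD, n = 3 each), with a 95% interval of -1.59 to 0.36 and a limma adjusted p of 0.33. After centring each library on its median it was -1.002 (adjusted p = 0.11), after quantile normalization -1.25 (adjusted p = 0.13) and after cyclic loess -1.27 (adjusted p = 0.13). Without FFC 3 it was -0.11 and without Chow 2 -0.41. The background was read from 5 genes with their main use outside liver and T cells, among them the insulin gene Ins2 and the myelin gene Mbp, which averaged 96.2 to 103.8 counts in the Chow libraries and 125 to 157 in the FFC libraries. Il4 had 2.79, 4.67 and 1.67 times that mean in Chow and 1.45, 1.05 and 0.55 times in FFC. In FFC 2 and FFC 3 it lay under the mean plus 2 SD of those genes. With every value raised at least to that level, the difference of Il4 was -0.05 (adjusted p = 0.91). Il4 counts under that level could not be told apart from background as read here, although the level is not a limit of detection. In FFC 3 the 69 counts of Il4 lay under the lowest of the 5 genes, which had 85.

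Il4ra, the receptor chain, was lower in FFC, with groups apart both in deposited values and in counts. It stood at log2 11.46, 10.93 and 11.66 in Chow and at 10.41, 10.27 and 10.12 in FFC. The counts were 3643, 2752 and 2940 in Chow and 1154, 980 and 1002 in FFC. No FFC library reached the lowest Chow library on either scale, and the FFC libraries lay closer together (SD 0.14 against 0.38).

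Il4ra fell by 1.08 ± 0.25 (log2, SE; 95% interval -1.66 to -0.51; means 11.35 in Chow and 10.27 in FFC, n = 3 each; limma adjusted p = 0.031), which is 2.11-fold higher in Chow. Groups that did not overlap with FFC lower were 4.28% of genes on the deposited scale and 22.1% in the counts. Its difference was the 7th lowest of all tested genes. After each library was centred on its own median, which took 0.39 from every difference, Il4ra stood at -1.47 (adjusted p = 0.0069), and after quantile normalization at -1.28 (adjusted p = 0.017). The call needed most of the libraries: without Chow 1, Chow 2, FFC 1 or FFC 2 the adjusted p was 0.12, 0.075, 0.12 and 0.12, while the difference stayed between -1.29 and -0.92 over the 6 fits that left out 1 library.

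B cells also carry Il4ra, and their genes were measured in the same libraries. Of 10 tested B cell markers 1 passed as higher in FFC and 0 as lower in limma (1 and 0 at an unadjusted p under 0.05), or 0 and 3 after centring. Over all tested genes the shares at the adjusted threshold were 17.4% and 0.936%, or 14.4% and 4.81% after centring. At the unadjusted threshold no share over all genes was worked out, here or for the lists below, so that those counts cannot be judged. In the Chow libraries 2 or 3 of the 10 lay at or under the background level, and in the FFC libraries 5 to 7. Their summed counts were 2709, 4132 and 4223 in Chow and 2256, 2174 and 1970 in FFC. Within Chow the order depended on the scale. In counts Chow 1 had the lowest B cell sum and the highest Il4ra, whereas after scaling Chow 3 had both the highest B cell sum (4653 against 2096 and 2923) and the highest Il4ra (11.66). Over the 6 libraries Il4ra and the summed B cell list had an r of 0.77 on centred values, with no test. With the summed macrophage list the r was 0.36, with the CD4 T cell identity list 0.23 and with the genes of other organs -0.87. Most of the macrophage sum in Chow came from Ly6c1, which lymphocytes share, and no r was worked out without it. Without Ly6c1 that sum was 1725, 1921 and 2455 counts in Chow and 4898, 6298 and 2808 in FFC, higher where Il4ra was lower. The part of B cells in the Il4ra difference was not tested. In RNA of a bulk preparation, fewer cells of a type and less RNA per cell cannot be told apart.

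**Figure D1:**
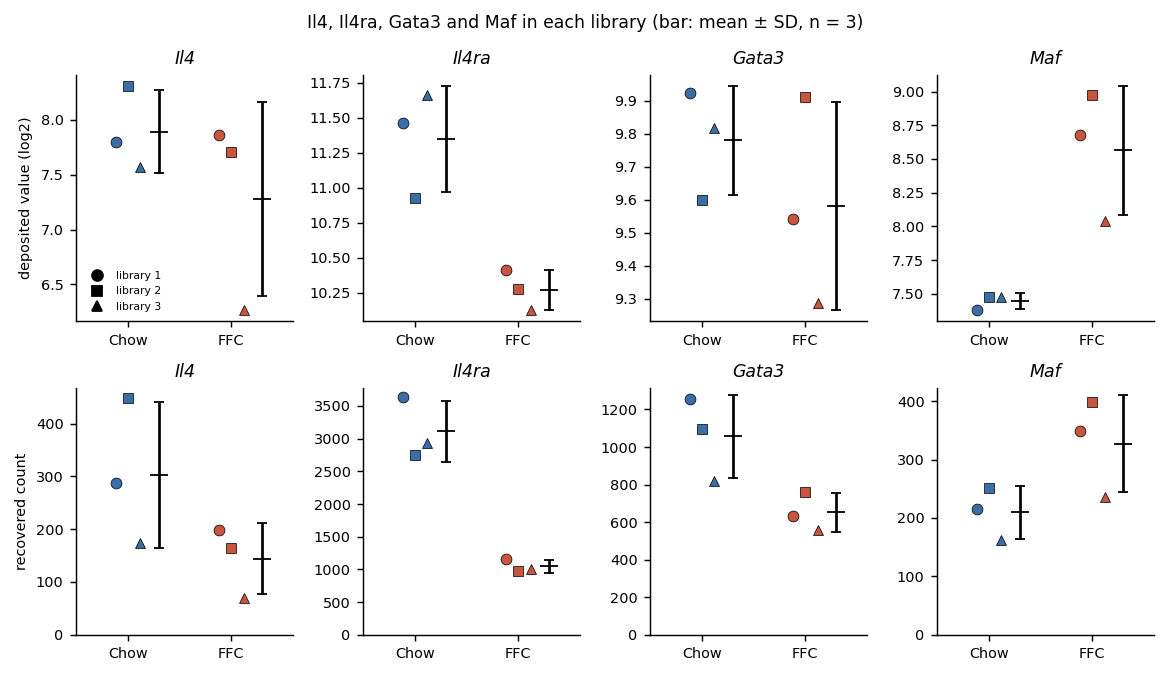
Deposited log2 values (upper row) and recovered counts (lower row) of Il4, Il4ra, Gata3 and Maf in each of the 6 libraries, with blue Chow and red FFC symbols and black bars for the mean ± SD (n = 3). Il4ra is apart on both scales, Maf on the log2 scale, where FFC values run from 8.04 to 8.97, and Gata3 in the counts, where FFC runs from 560 to 762. Of all tested genes 34.4% were apart on the log2 scale with FFC higher. With FFC lower 4.28% were apart on the log2 scale and 22.1% in the counts.

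Gata3, the master regulator of the Th2 fate, showed no difference that passed. It stood at log2 9.92, 9.60 and 9.82 in Chow and at 9.54, 9.91 and 9.28 in FFC. FFC 2 lay at the level of Chow 1, and the groups overlapped. The difference was -0.20 ± 0.24 (log2, SE; means 9.78 ± 0.17 and 9.58 ± 0.32, SD, n = 3 each; 95% interval -0.75 to 0.35; limma adjusted p = 0.58).

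The scale mattered for Gata3 more than for Il4ra. Its counts were 1256, 1097 and 818 in Chow and 633, 762 and 560 in FFC, which did not overlap, as for 22.1% of tested genes with FFC lower. After centring the groups did not overlap either, with 1.17 to 1.73 above the library median in Chow and 0.78 to 0.95 in FFC, as for 16.3% of tested genes with FFC lower. The centred difference was -0.59 (adjusted p = 0.054) and the quantile-normalized one -0.46 (adjusted p = 0.15). The scale factors that turn counts into deposited values were 0.707 to 1.10 in Chow and 1.11 to 1.26 in FFC, so that equal counts would come out higher in FFC.

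Maf, the transcription factor that acts on Il4, was the member that rose. It stood at log2 7.38, 7.48 and 7.48 in Chow and at 8.68, 8.97 and 8.04 in FFC. The Chow libraries were almost level, and FFC 3 was the lowest of the FFC libraries but above each Chow library. The counts were 215, 252 and 162 in Chow and 348, 398 and 236 in FFC, so that in counts FFC 3 lay under Chow 2.

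Maf rose by 1.12 ± 0.27 (log2, SE; 95% interval 0.50 to 1.74; means 7.45 ± 0.06 in Chow and 8.56 ± 0.48 in FFC, SD, n = 3 each; limma adjusted p = 0.036), or 2.17-fold. Groups that did not overlap with FFC higher were 34.4% of tested genes on the deposited scale, 20.3% in the counts and 28.3% after centring, and the difference of Maf was the 78th highest. After centring Maf stood at 0.73 (adjusted p = 0.038), and after quantile normalization at 0.58 (adjusted p = 0.15). Without Chow 1, Chow 2, FFC 1 or FFC 2 the adjusted p was 0.12, 0.12, 0.12 and 0.14, and without FFC 3 the difference was 1.38 (adjusted p = 0.0090).

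The 5 background genes moved the same way as Maf. They had a median difference of 1.00 (range 0.56 to 1.22), and 3 of them passed as higher. Maf counts were 1.56 to 2.62 times their mean in Chow and 1.89 to 2.55 times in FFC. With that mean subtracted from every count, Maf stood at 1.31 ± 0.40 (adjusted p = 0.13, 572 genes) and Il4ra at -1.24 ± 0.26 (adjusted p = 0.069).

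Macrophages also express Maf. Of 10 tested macrophage, Kupffer cell and monocyte markers 6 passed as higher in FFC and 0 as lower, with a median difference of 1.80. At an unadjusted p under 0.05 in limma 7 were higher and 0 lower, with no share over all genes worked out. Of all tested genes 17.4% passed as higher and 0.936% as lower, with a median difference of 0.43. The sum of the list was 14235, 16299 and 10275 counts in Chow and 13430, 12709 and 5616 in FFC, of which Ly6c1, which lymphocytes share, gave 12510, 14378 and 7820 in Chow and 8532, 6411 and 2808 in FFC. Without Ly6c1 the sum was 1725, 1921 and 2455 in Chow and 4898, 6298 and 2808 in FFC. FFC 3 had the lowest such sum and the lowest Maf of its group, while Chow 3 had the highest such sum of its group with the lowest Maf count (162) but, on the deposited scale, the highest Maf (7.48, level with Chow 2). On centred values Maf had an r of 0.0015 with the summed list, Ly6c1 included, over the 6 libraries. Ly6c1 made up most of that sum in Chow, so that this r does not speak for the other markers. No r was worked out without Ly6c1, where the sum was higher in every FFC library than in any Chow library, as Maf was on the deposited scale. With the summed B cell list the r was -0.88, with the CD4 T cell identity list -0.07 and with the background genes 0.75. The part of macrophages in the Maf difference was not tested.

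**Figure D2:**
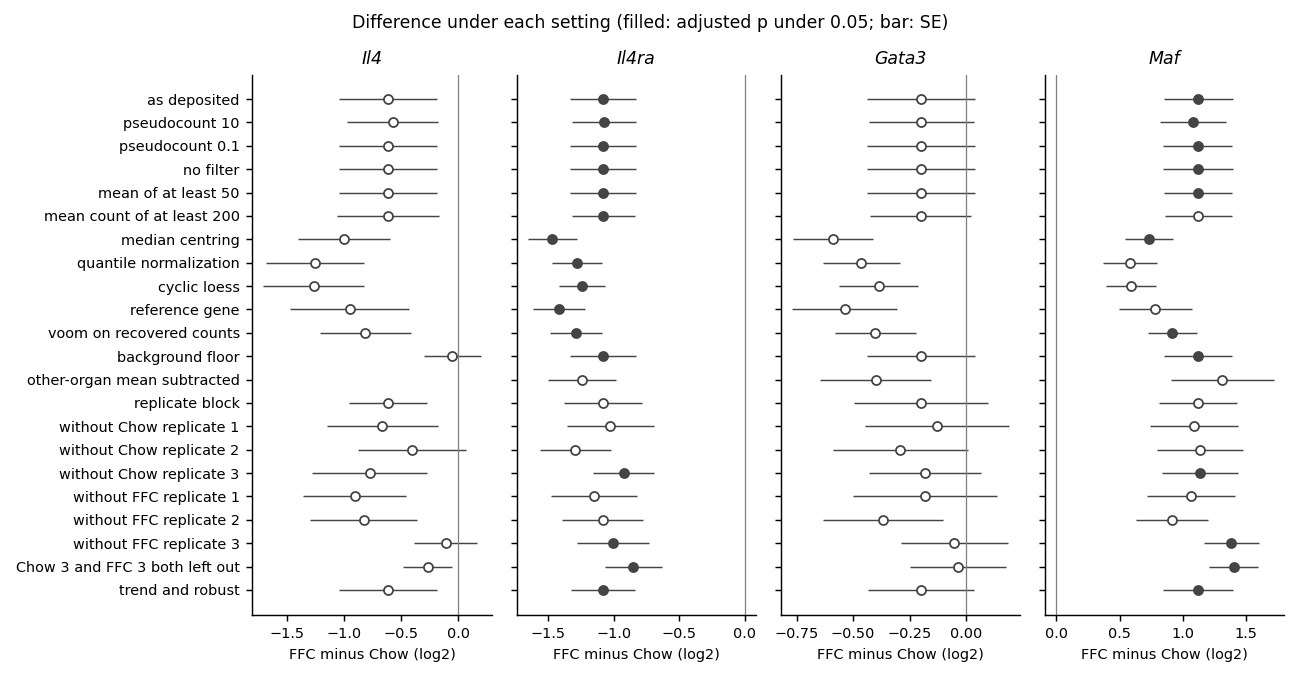
Difference FFC minus Chow (log2, x axis) of each gene on the deposited scale and under each alternative setting (y axis), with SE bars and filled symbols where the adjusted p was under 0.05. Il4ra stays between -1.47 and -0.85 and Maf between 0.58 and 1.40, Il4 and Gata3 are below 0 in every fit shown, and Il4 has no value with the other-organ mean subtracted.

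A ratio of 2 genes within a library is free of the scale factor, and its change between groups shows unequal change of the 2 genes. The level of such a ratio also depends on the probes and has no meaning of its own. Log2 Maf over Gata3 was -2.55, -2.12 and -2.34 in Chow and -0.86, -0.94 and -1.25 in FFC. The change was 1.32, or 2.49-fold in favour of Maf, and the groups were far apart relative to their SD (0.21 and 0.20). Maf over Il4ra changed by 2.20, from -3.90 ± 0.40 to -1.71 ± 0.39 (SD, n = 3 each), the largest change among the pairs of members.

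The remaining pairs of members differed in whether the groups overlapped. Gata3 over Il4ra changed by 0.88 and its groups did not overlap, so that the receptor chain was lower relative to Gata3 in every FFC library. Il4 over Maf changed by -1.73, also without overlap, and by -1.17 with values raised to the background level, under which Il4 lay in FFC 2 and FFC 3. Il4 over Gata3 (-0.41) and Il4 over Il4ra (0.47) overlapped between groups. Against the Th1 side, Tbx21 over Gata3 changed by 0.82 and Ifng over Il4 by 2.47 (1.91 with values raised to the background level), both without overlap as deposited. Tbx21 is the Th1 master regulator and Ifng the Th1 cytokine gene. Tbx21 had 248, 206 and 154 counts in Chow and 210, 220 and 223 in FFC, which overlapped. With the mean of the background genes subtracted, Tbx21 differed by 0.21 (limma adjusted p = 0.77). In all, 6 of 8 ratios were apart. Each of these 6 had an exact two-sided permutation p of 0.1, the smallest that 3 against 3 libraries allow (0.13 adjusted over the 8), so that none could pass 0.05. The 8 ratios reuse the same genes and are not separate results, and no share was worked out for other gene pairs. Among single genes on the deposited scale 34.4% were apart with FFC higher and 4.28% with FFC lower.

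**Figure D3:**
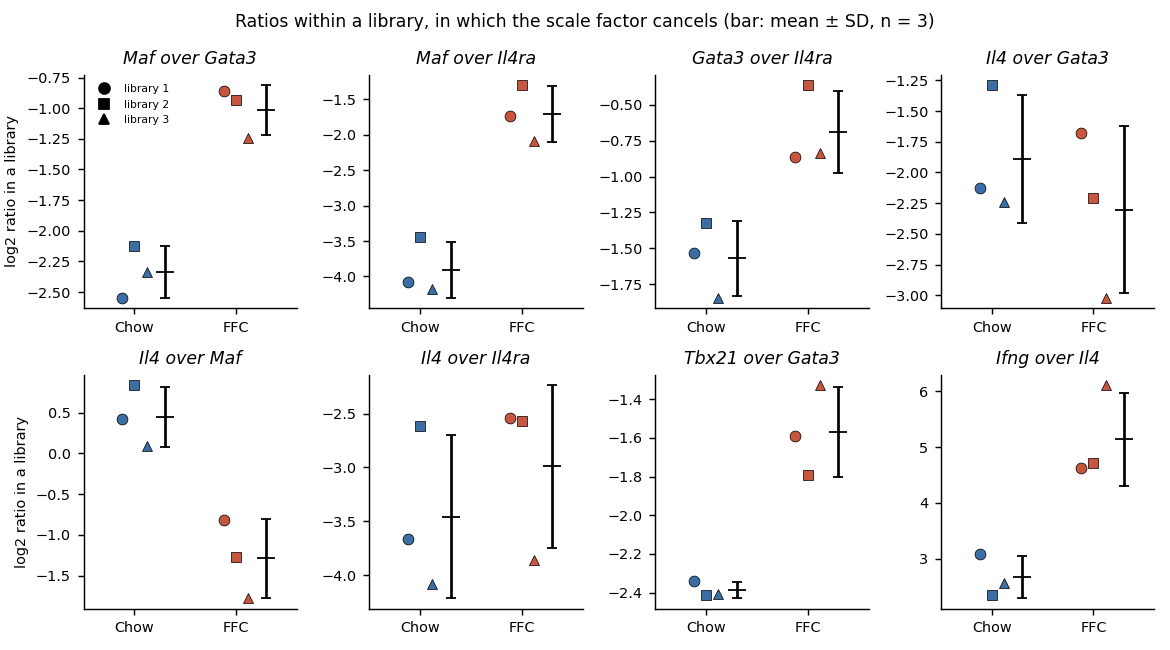
Log2 ratio of 2 genes in each library (y axis) for 8 pairs, Chow in blue and FFC in red, with black bars for the mean ± SD (n = 3). Maf over Gata3 lies between -2.55 and -2.12 in Chow and between -1.25 and -0.86 in FFC, while Il4 over Gata3 and Il4 over Il4ra overlap.

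The other genes of the pathway were read from lists of type 2 cytokines, receptors, IL-4 signal transduction and nuclear regulators. Of 63 listed genes 31 were in the table and tested, the 4 members included. Without the members 1 of 27 passed as higher and 0 as lower, against 17.4% and 0.936% of all tested genes. At an unadjusted p under 0.05 in limma 5 were higher and 0 lower, with no share over all genes worked out. The median difference was 0.13 against 0.43 over all tested genes. After centring 0 passed as higher and 2 as lower, with a median of -0.25 against 0.04.

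Among the type 2 cytokines Il5, which drives eosinophils, and Il13, which acts through a receptor that shares the Il4ra chain, were very uneven between libraries. Il13 had 607, 2661 and 636 counts in Chow and 1149, 1120 and 268 in FFC. Il5 had 572, 1149 and 811 counts in Chow and 1200, 1829 and 196 in FFC. FFC 3 was the lowest library for Il4, Il5 and Il13 alike, and Chow 2 the highest for Il4 and Il13. The differences were 0.38 for Il5 (95% interval -1.38 to 2.15) and -0.04 for Il13 (-1.60 to 1.52), with limma adjusted p of 0.76 and 0.98, so that neither passed. Both depended on single libraries. Without FFC 3 Il5 stood at 1.40 and passed (adjusted p = 0.032), and Il13 stood at 0.70. Without both Chow 3 and FFC 3 Il5 passed as well (1.59, adjusted p = 0.0015). Without FFC 2 Il5 turned to -0.30, and without Chow 2 Il13 turned to 0.53.

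The cytokine gene that passed was Csf2, a growth factor gene used by several helper types, which rose by 1.48 (adjusted p = 0.030; 1.09 after centring, adjusted p = 0.081). It had its highest count, 2588, in FFC 3, the library in which Il4, Il5 and Il13 were lowest. Il10, an anti-inflammatory cytokine gene, stood 0.93 higher in FFC without passing (adjusted p = 0.083), and centring brought this to 0.55 (adjusted p = 0.27). Its groups did not overlap on the deposited scale, as for 34.4% of tested genes, but did in the counts, and without FFC 3 it passed at 1.28 (adjusted p = 0.019).

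**Figure D4:**
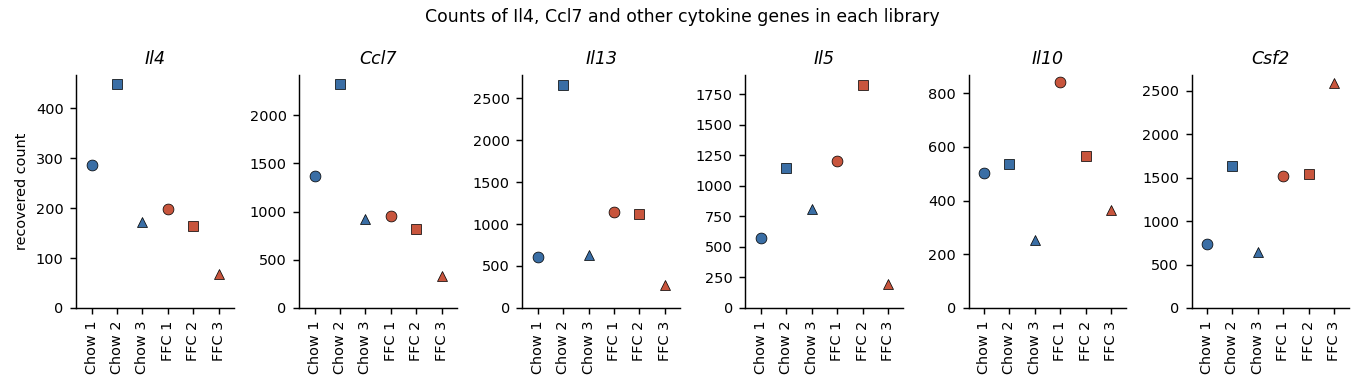
Recovered counts (y axis, from 0) of Il4, Ccl7, Il13, Il5, Il10 and Csf2 in each library (x axis), Chow in blue and FFC in red. FFC 3 is lowest for Il4 (69), Ccl7 (333), Il13 (268) and Il5 (196) and highest for Csf2 (2588).

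None of the named partners of Il4ra in signalling passed the test. Il2rg, the common chain that pairs with Il4ra in lymphocytes, stood at 11.98 ± 0.17 in Chow and 12.11 ± 0.20 in FFC (SD, n = 3 each), a difference of 0.13 with a 95% interval of -0.37 to 0.63 that does not reach the -1.08 of Il4ra. Stat6, the transducer of the IL-4 receptor, differed by 0.05 (-0.47 to 0.57), and Jak1 and Jak3, the kinases bound to the receptor chains, by -0.08 (-0.71 to 0.55) and 0.47 (-0.06 to 1.00). After centring Il2rg stood at -0.25, Stat6 at -0.34, Jak1 at -0.47 and Jak3 at 0.08, and none of them passed. Stat5a and Stat5b, which act beside STAT6 in Th2 cells, differed by -0.26 and -0.13, with FFC 3 the highest library for Stat5a at 3824 counts against 1404 and 1334 in the other FFC libraries. Differences between these genes and Il4ra were not tested as such.

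Of the 13 signal transduction genes 0 passed in limma on the deposited scale (1 higher and 0 lower at an unadjusted p under 0.05). After centring 2 passed as lower, against 4.81% of all tested genes, and are named here after their values were seen. They were Socs1, a feedback inhibitor of cytokine receptors that IL-4 itself induces, at -0.77 (adjusted p = 0.016; -0.38 and 0.23 as deposited) and the kinase gene Jak2 at -0.63 (adjusted p = 0.023; -0.24 and 0.46 as deposited). Socs1 had 5289, 5879 and 4533 counts in Chow and 2989, 2988 and 2592 in FFC, and its groups did not overlap on either scale. With FFC lower, this held for 4.28% of tested genes on the deposited scale and 22.1% in the counts.

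Among 9 nuclear regulators Maf was the one that passed, where 17.4% of all tested genes passed as higher. Irf4, a factor that effector T cells of several types need, differed by 0.06 (adjusted p = 0.91). Nfatc1 and Nfatc2, which carry the calcium signal to the Il4 promoter, differed by 0.45 and 0.37 (adjusted p = 0.33 and 0.20), and after centring by 0.06 and -0.01. Batf, Il1rl1, Ccr4, Arg1 and Mrc1, also of interest, were not analysed here. Only 3 of 15 IL-4 response genes were tested, and 0 of them passed in limma. At an unadjusted p under 0.05 all 3 were higher, with no share over all genes worked out. In each library 2 or 3 of the 3 lay at or under the background level. Their median difference was 0.83, beside 1.00 for the 5 background genes.

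**Figure D5:**
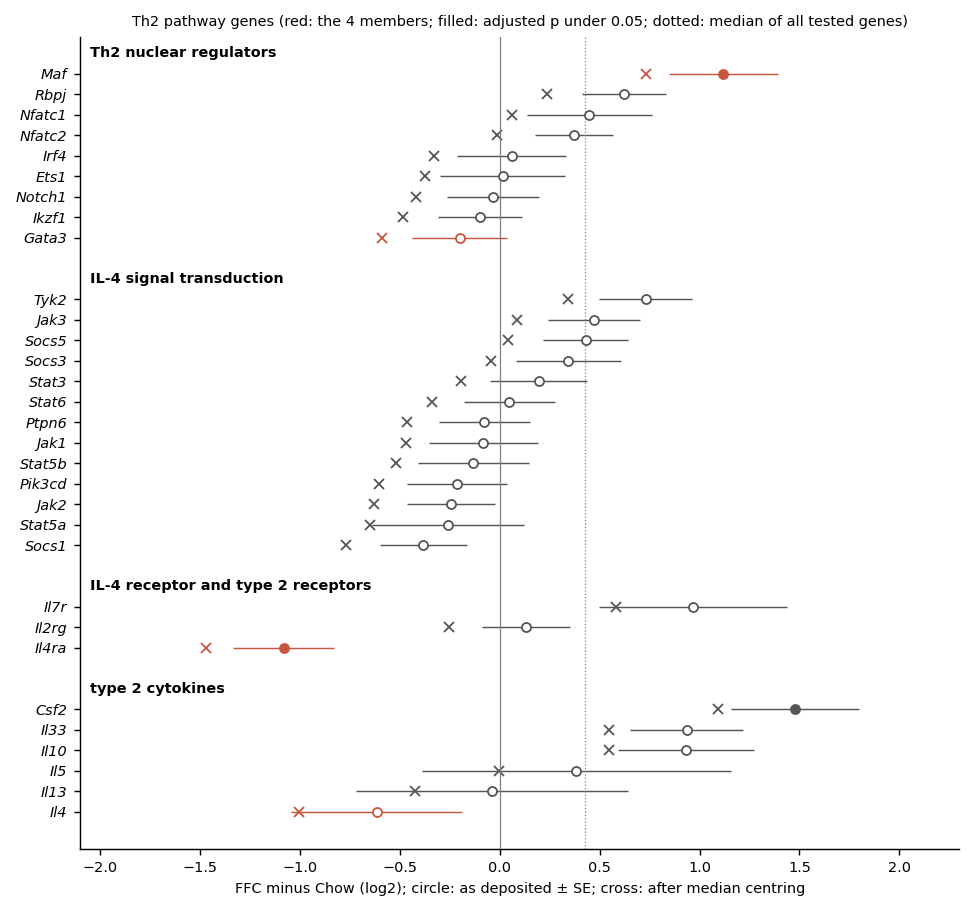
Difference FFC minus Chow (log2, x axis) of the 31 tested Th2 pathway genes grouped by role (y axis), circles as deposited with SE bars and crosses after median centring, the 4 members in red and filled where the adjusted p was under 0.05. Il4ra lies at -1.08, well below Il2rg at 0.13, and Maf at 1.12 lies above the other nuclear regulators.

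Of 10 tested genes that in textbook accounts oppose the Th2 fate, 2 rose and 0 fell, a share near the 17.4% of all tested genes that passed as higher. At an unadjusted p under 0.05 in limma 4 were higher and 0 lower, with no share over all genes worked out. After centring 2 passed as higher and 1 as lower, the latter Irf1, an interferon-induced factor, at -0.85 (adjusted p = 0.021; -0.46 and 0.24 as deposited), named after its values were seen. Ifng rose by 1.86 (adjusted p = 0.013) and Stat4, which transmits IL-12 signals, by 1.19 (adjusted p = 0.036; 0.70 after quantile normalization, adjusted p = 0.058), while Tbx21 differed by 0.62 (adjusted p = 0.071).

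Maf is also tied to other helper programmes, and of 15 tested genes linked to it 3 rose and 0 fell, with a median difference of 0.66. This share too was near the 17.4% of all tested genes, and after centring 2 of 15 passed as higher against 14.4%. At an unadjusted p under 0.05 in limma 7 were higher and 0 lower, with no share over all genes worked out. Those that rose as deposited were Havcr2 and Tigit, inhibitory receptors, at 3.28 and 1.55, and Prdm1, a regulator of terminal differentiation, at 0.83 (adjusted p = 0.00065, 0.024 and 0.042). Havcr2 had 49, 54 and 57 counts in Chow, under the background level, and with values raised to that level its difference was 1.84 (adjusted p = 0.0081). Prdm1 did not pass after centring (0.44, adjusted p = 0.055) or quantile normalization (0.22, adjusted p = 0.35). Havcr2 passed in all 6 fits that left out 1 library, Ifng in 3 of 6, and Csf2, Stat4, Tigit and Prdm1 in 2 of 6 each. Il21 and Icos, a cytokine and a costimulatory receptor of follicular helper cells, differed by 0.66 and 0.45 (adjusted p = 0.36 and 0.28).

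The libraries can also be read by which genes shared the profile of each member. Over the 6 libraries, on values centred on each library's median and among 664 other genes with a mean count of at least 100, the genes closest to Il4 were Ccl7, Ly6c1 and Thbs1 (Pearson r = 0.997, 0.975 and 0.968). Ccl7 encodes a chemokine that attracts monocytes, Ly6c1 a surface protein of monocytes and some T cells, and Thbs1 a matrix protein. Ccl7 had 1366, 2323 and 920 counts in Chow and 958, 821 and 333 in FFC, and the deviations from the group means of Ccl7 and Il4 had an r of 0.995. Il13 had an r of 0.78 with Il4, Gata3 0.72 and Il5 0.51.

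Maf was closest to Tigit, Cxcr6, a receptor of liver-resident lymphocytes, and Lpin1, a lipid phosphatase gene (r = 0.978, 0.973 and 0.960). Cxcr6 had 1436, 1680 and 1221 counts in Chow and 2800, 2818 and 1889 in FFC. Within the groups the deviations of Maf correlated with those of Tigit and Cxcr6 at 0.91 and 0.93, and with those of Il4 at 0.93, although the group means of Maf and Il4 lay in opposite directions.

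Gata3 was closest to Ptpn6, a phosphatase gene, the MHC class Ib gene H2-T23 and Cd52, a lymphocyte surface protein gene (r = 0.981, 0.961 and 0.960; 0.90, 0.56 and 0.91 on the deposited scale). Il4ra was closest to Grb2 and Vav1, adaptor and exchange factor genes of receptor signalling, and Ctnnb1, the gene of beta-catenin (r = 0.992, 0.984 and 0.983). For Il4ra these values rest on the centring, since on the deposited scale they were 0.42, 0.37 and 0.80. All these correlations describe 6 libraries that share their scale factors and group means, and carry no test.

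The libraries held 623212 to 900322 counts in all, with 689432, 693640 and 623212 in FFC. All 11 tested CD4 T cell identity genes lay above the background level in every library, with sums of 15420 to 24614 counts in Chow and 18100 to 19391 in FFC. Mast cells, basophils and eosinophils can also make interleukin 4. Of 8 tested markers of these cells 2 passed as higher in FFC and 0 as lower. At an unadjusted p under 0.05 in limma 7 were higher and 0 lower, with no share over all genes worked out. In each library 6 or 7 of the 8 lay at or under the background level. Their median difference was 0.86, beside 1.00 for the 5 background genes, and 17.4% of all tested genes passed as higher. Of 9 NK and NKT markers 5 passed as higher and 0 as lower, against 17.4% and 0.936% of all tested genes, with a median difference of 1.11. At or under the background level lay 3, 4 and 7 of the 9 in Chow libraries 1 to 3, and 3 in each FFC library. Hepatocyte, endothelial and stellate cell markers were not analysed here.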

How the data were processed

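The 3 Chow and 3 FFC libraries were read out by nCounter, as the title of the series states. The authors deposited log2 values for 750 genes, and no label states how these were normalized. Back on the linear scale, a library's values were whole-number multiples of a single number, its scale factor (100% of values, within 0.02 of a whole count), and the counts were recovered from it. Gene names matched RefSeq symbols of GRCm38.p6 (734 current, 16 synonyms, 0 unmatched), and promoters came from RefSeq.

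The 748 genes whose linear values averaged 20 or more were fitted with limma 3.58.1 in R 4.3.3 (lmFit, eBayes, no covariate, two-sided, Benjamini-Hochberg at 0.05). The fit was tested on simulated data. The members, lists, tests and alternatives were chosen with earlier results of these data known. Named were the members, a fixed set of pathway genes, up to 4 passing genes per list and direction, and the 3 genes closest to each member; Socs1, Jak2, Irf1, Ly6c1, Ins2 and Mbp were added after their values were seen. Background was the mean of 5 genes of other organs, its upper level that mean plus 2 SD. Ratios were compared with exact permutation tests. Alternatives were pseudocounts, filters, scalings, a background floor, the replicate number as a block, libraries left out, voom and eBayes with trend and robust. Subtracting the background mean, and correlations without centring, were added after the data were seen. Libraries of the same replicate number showed no likeness beyond that of unlike numbers. The correlation of deviations was 0.02, -0.22 and -0.04 for numbers 1 to 3, and -0.29 to 0.33 between unlike numbers. With 3 libraries a group this cannot settle whether the numbers pair the libraries. With 3 libraries a group the precision is limited. Counts of list genes at an unadjusted p under 0.05 are given without a share over all genes, so that they cannot be judged against one.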

Additional observations from a re-analysis of the deposited data

How the results depend on the processing

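Il4 and Gata3 kept a difference below 0 and did not pass in any of 20 and 21 alternatives. Il4ra kept its direction in 21 and passed in 15 of them, and Maf in 21 and 11. With the replicate number as a block Il4ra stood at -1.08 and Maf at 1.12 (limma adjusted p = 0.15 each). In that fit 1 gene passed as higher and 0 as lower, and 0 pathway genes passed. Whether the numbers pair the libraries was not settled. With the background mean subtracted Il4ra (-1.24) and Maf (1.31) did not pass. Maf also failed with a mean count of at least 200 (1.12), quantile normalization (0.58), cyclic loess (0.59) and the reference gene Mtmr14 (0.78). Leaving out 1 library gave -1.29 to -0.92 for Il4ra and 0.91 to 1.38 for Maf. Genes called higher, 130 as deposited, were 31 with a mean count of at least 200, 30 with quantile normalization, 37 with cyclic loess, 24 with the reference gene, 277 with the background floor, whose level is itself higher in FFC, 9 with the background mean subtracted, 460 without both Chow 3 and FFC 3, and 1 to 284 with 1 library left out. Genes called lower, 7 as deposited, were 3 (mean count of at least 200), 36 (median centring), 23 (quantile), 28 (cyclic loess), 25 (voom), 1 (background mean subtracted), 15 (without both Chow 3 and FFC 3) and 0 to 6 (1 library left out). Pathway genes called higher, 2 as deposited, were 1 with that filter and with centring, 0 with quantile, cyclic loess, the reference gene and the background mean subtracted, 4 with voom, 6 with the floor, 12 without both Chow 3 and FFC 3, and 0 to 7 with 1 library left out. Pathway genes called lower, 1 as deposited, were 3 with centring, 2 with quantile, voom and without both Chow 3 and FFC 3, 0 with the background mean subtracted, and 0 to 1 with 1 library left out. With the floor, Il4 over Gata3 turned to 0.15 and Il4 over Maf moved to -1.17, where Il4 values under the floor were raised to it.

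Some differences changed sign, none of them past the threshold where the sign was opposite to the deposited one. With centring, quantile, the reference gene and voom, Il2rg was -0.25, -0.052, -0.20 and -0.067, Irf4 -0.33, -0.15, -0.28 and -0.13, and Stat6 -0.34, -0.19, -0.29 and -0.16. With cyclic loess Irf4 was -0.089, Stat6 -0.12, Nfatc1 -0.041, Nfatc2 -0.10 and Tbx21 -0.0055, and with quantile Nfatc1 was -0.059, Nfatc2 -0.16 and Tbx21 -0.0087. Centring put Il5 at -0.0034 and Nfatc2 at -0.014. Subtracting the background mean put Stat6 at -0.050, Nfatc2 at -0.024 and Il5 at -0.0028. Without both Chow 3 and FFC 3, Il13 was 0.56, Irf4 -0.31, Jak1 0.18 and Stat5b 0.11. With 1 library left out, Il13 ran from -0.47 to 0.70, Il5 from -0.30 to 1.40, Irf4 from -0.14 to 0.22, Jak1 from -0.26 to 0.18, Stat5b from -0.27 to 0.13 and Stat6 from -0.065 to 0.16. The cause of these changes was not tested. The counts of Il4 in FFC 2 and FFC 3 did not exceed the background level, and an effect of depth on Il4 was not tested.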
